A study of Mus musculus with 73 samples.

Results

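The genes described here are the metallothioneins *Mt1* and *Mt2*, the aldo-keto reductase *Akr1b8*, and 6 enzymes of the oxidative stress response, *Nqo1*, *Gclc*, *Gclm*, *Hmox1*, *Txnrd1* and *Srxn1*. These 9 genes, of 17399 in the table of epithelial RNA, were listed to ask whether a rise of *Mt2* and *Akr1b8* in the jejunal epithelium after ablation of Lgr5+ cells was part of a wider metal or oxidative stress response. The list was chosen by the values of this comparison, in which *Mt2* and *Akr1b8* were higher after DT, so the values of all 9 genes in it are given as a description with no test. Of the 9 genes 8 passed a filter on low counts and *Hmox1* did not. Their levels in captured stroma and in sorted single cells were not used to choose them.

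The epithelium came from 4-month-old Lgr5(GFP-ires-DTR/+) mice, in which GFP and the receptor for diphtheria toxin (DT) are made from the *Lgr5* locus. In 4 of them tissue was taken 48 h after 50 µg/kg DT (DT group), and in the other 4, 48 h after saline vehicle (control group), so both groups carried the receptor allele. The receptor is thus made where *Lgr5* is expressed, in crypt base stem cells and in villus tip telocytes, large stromal cells at the villus tip. Effects of losing each of the 2 cell types, and of the toxin itself, cannot be told apart in this design. Stroma was cut by laser capture microdissection (LCM) from the crypt of 3 mice and from 3 levels of the villus (bottom, center, tip) of 5 mice, in 29 sections of 3-month-old C57BL/6 jejunum. Single cells of 8 further C57BL/6 mice of 3 months were sorted into plates by 9 gates. All mice were male, and no mouse of the LCM and single-cell sets received DT.

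Metallothioneins are small, cysteine-rich proteins that bind zinc and copper. Their genes are switched on by the transcription factor MTF1 when free zinc rises, and also by glucocorticoids and oxidative stress. NRF2, encoded by *Nfe2l2* and held back by KEAP1, turns on genes for glutathione synthesis, thioredoxin recycling and quinone or aldehyde reduction. The gut epithelium takes up dietary metals and meets dietary oxidants, and both systems are active there.

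Metal response elements (the sites of MTF1) and antioxidant response elements (the sites of NRF2) were searched in the RefSeq promoters of the listed genes, which were found for 7 of the 9 genes. The promoters of the 3 genes with the largest differences are shown. Each is the 250 bases before the transcription start in GRCm38.p6, on the plus strand and 5′ to 3′, with matches to either element core on either strand in capitals.
Mt1, chr8:94178839-94179088: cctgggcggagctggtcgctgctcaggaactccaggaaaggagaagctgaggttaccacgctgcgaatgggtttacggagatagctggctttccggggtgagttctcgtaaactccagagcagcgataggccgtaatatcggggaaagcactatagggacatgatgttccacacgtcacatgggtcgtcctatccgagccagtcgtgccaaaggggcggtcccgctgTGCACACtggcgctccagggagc
Mt2, chr8:94172368-94172617: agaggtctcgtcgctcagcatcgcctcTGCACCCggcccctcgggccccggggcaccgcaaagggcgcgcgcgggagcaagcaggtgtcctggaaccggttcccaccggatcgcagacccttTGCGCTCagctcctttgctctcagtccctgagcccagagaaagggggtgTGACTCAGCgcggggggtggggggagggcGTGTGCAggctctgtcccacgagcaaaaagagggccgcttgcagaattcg
Akr1b8, chr6:34353896-34354145: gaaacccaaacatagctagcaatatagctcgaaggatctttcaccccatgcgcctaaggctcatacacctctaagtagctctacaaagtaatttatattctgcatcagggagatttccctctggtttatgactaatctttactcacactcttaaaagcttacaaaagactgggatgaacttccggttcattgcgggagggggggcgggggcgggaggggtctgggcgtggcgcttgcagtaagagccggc

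The core of the metal response element was searched as TGCACNC or TGCGCNC and that of the antioxidant response element as TGACNNNGC, both strands, from 250 bases before to 50 bases after the start. Of 32851 mouse promoters of this length, 25.7% held at least 1 metal response core and 12.4% at least 1 antioxidant response core. At least 2 metal response cores were held by 7.11%. The *Mt1* window held 3 metal response cores, 1 before and 2 after the start. The *Mt2* window held 4 of them, 3 before the start, and 1 antioxidant response core. No match to either was in the windows of *Akr1b8* or *Nqo1*. *Gclm* had 3 metal response cores and 1 antioxidant response core that overlapped the first of them, *Srxn1* had 1 of each, and 1 of the 3 *Txnrd1* promoters had 1 antioxidant response core. These matches are letters in a window and say nothing of whether a factor bound there. *Mt1* (chr8:94179082-94180327) and *Mt2* (chr8:94172664-94173568) are neighbours on the plus strand of chromosome 8, with 5513 bases between them. An antisense gene, *Gm45774*, overlaps *Mt2*, and the strand setting of the epithelial counts is not given in the sources used here, so reads of the 2 genes could not be told apart. *Akr1b8* lies at chr6:34354119-34368463, *Nqo1* at chr8:107388225-107403206 and *Hmox1* at chr8:75093621-75100589. *Gclc* lies at chr9:77754535-77794485, *Gclm* at chr3:122245557-122270732, *Txnrd1* at chr10:82833951-82897712 and *Srxn1* at chr2:152105516-152111376, all in GRCm38. *Gclm* and *Txnrd1* also overlap other annotated genes, *Gm6061* and *Eid3* among them. RefSeq and this annotation place the starts of *Mt1*, *Mt2* and *Akr1b8* some bases apart.

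The epithelial samples held between 748458 and 4210158 unique molecular identifiers (UMIs), the count of captured RNA molecules after PCR copies are merged. They came in 2 batches with 2 mice of each group per batch, batch a (replicates 1 and 2) and batch b (replicates 3 and 4). Control replicate 2 was the smallest library. Of 8986 genes tested with edgeR and batch as a term, 2 were called higher after DT (0.0223%) and 30 lower (0.334%) at an adjusted p under 0.05. The 2 called higher were *Mt2* and *Akr1b8*, which is how they came to be listed, and nothing is read from their number. With the replicate number as a block in place of the batch, 0 genes were called higher and 3 lower, and with no batch term 0 and 1. In bulk tissue, fewer cells of a type and less RNA per cell cannot be told apart.

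*Mt1* stood at 196, 80.2, 404 and 425 CPM (UMIs per 1000000 UMIs of the sample) in control replicates 1 to 4 and at 386, 548, 1527 and 858 in DT replicates 1 to 4. Within each batch both DT samples lay above both controls, while the lowest DT sample, of batch a, lay below both controls of batch b. The mean was 276 ± 167 in control and 830 ± 504 in DT epithelium (SD, n = 4 each), and the fitted log2 fold change was 1.58 (SE 0.30). That is 3.00-fold, with a 95% interval of 1.91 to 4.70.

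*Mt2* had a larger fold change. Its values were 29.0, 10.7, 122 and 74.2 CPM in the controls and 52.2, 120, 458 and 283 after DT. Again the batches did not mix, with batch b above batch a in each group. The mean was 59.1 ± 49.9 in control and 229 ± 181 in DT epithelium (SD, n = 4 each), and the log2 fold change was 1.93 (SE 0.32), or 3.81-fold (95% interval 2.34 to 6.18).

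*Akr1b8*, which encodes a reductase of aldehydes and ketones, was near the detection limit in control epithelium. It gave 0, 1, 37 and 20 UMIs in the controls, or 0, 1.34, 8.79 and 5.38 CPM. The 0 of 1447280 UMIs in control replicate 1 allows a level of up to 2.07 CPM, a limit that covers counting error only. After DT the values were 7.58, 18.9, 29.5 and 35.2 CPM. The lowest DT value lay below the highest control, so the groups overlapped for *Akr1b8* as for both metallothioneins. Of the 8 tested genes 0 had groups that did not overlap, beside 2.96% of all genes tested. The mean was 3.88 ± 3.99 in control and 22.8 ± 12.2 in DT epithelium (SD, n = 4 each), and the log2 fold change was 2.47 (SE 0.41), or 5.53-fold (95% interval 2.98 to 10.3). Among 8986 genes tested it had rank 3 by fold change, *Mt2* rank 6 and *Mt1* rank 11. As a description only, *Mt1*, *Gip* (log2 fold change -1.13) and *Gm28046* (-1.38) were the genes just outside the threshold, and *Defa24* (-2.45), *Gm14085* (-1.36) and *Alox5ap* (-2.92) those just inside it.

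**Figure D1:**
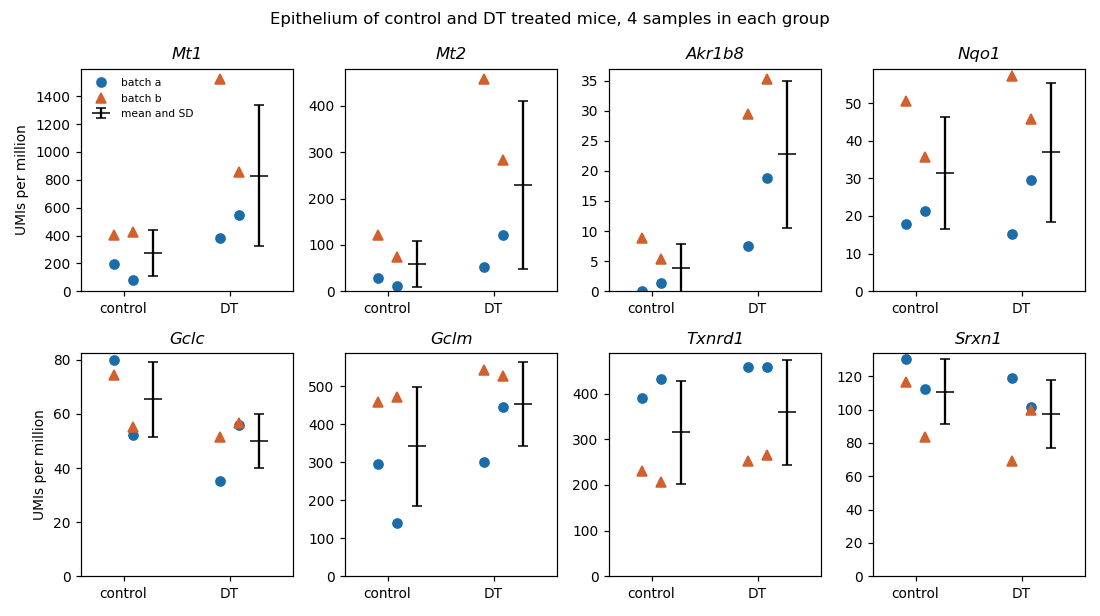
CPM of the 8 tested genes in each epithelial sample, with linear axes that start at 0. Circles are batch a, triangles batch b, and the bar at the right of each group is the mean with its SD (n = 4). *Mt1*, *Mt2* and *Akr1b8* are higher in the DT samples of each batch, and *Gclc*, *Nqo1* and *Srxn1* have their lowest value in a DT sample.

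*Mt1*, *Mt2* and *Akr1b8* were higher after DT in both batches when these were taken apart. The difference of mean log2 levels was 1.77 in batch a and 1.44 in batch b for *Mt1*, and 2.05 and 1.89 for *Mt2*. For *Akr1b8* it was 3.83 and 2.14, where the batch a value depends on the number added before the logarithm because control replicate 1 had no UMI. Without control replicate 2 the fitted log2 fold changes were 1.39 for *Mt1*, 1.79 for *Mt2* and 2.42 for *Akr1b8*. Without DT replicate 3, the highest sample for both metallothioneins, they were 1.41, 1.74 and 2.68. The number of genes called higher went to 0 when any 1 of the controls was left out, and was 2 to 6 when 1 DT sample was left out.

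The other enzymes had log2 fold changes between -0.43 and 0.43. *Gclc* and *Gclm* encode the catalytic and modifier subunits of glutamate-cysteine ligase, which makes the first step of glutathione synthesis. *Gclm* stood at 296, 140, 458 and 472 CPM in the controls and at 302, 446, 544 and 528 after DT. Its log2 fold change was 0.43, with a 95% interval of -0.12 to 0.98, and the groups overlapped. *Gclc* had values of 80.2, 52.1, 74.3 and 55.1 in the controls and 35.4, 56.1, 51.5 and 56.8 after DT. Its log2 fold change was -0.43 (95% interval -0.88 to 0.01), so the 2 subunits of 1 enzyme had differences of opposite sign.

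*Nqo1*, a quinone reductase and a classic NRF2 target, was at 18, 21.4, 50.6 and 35.8 CPM in the controls and 15.2, 29.5, 57.1 and 45.8 after DT. The batches differed more than the groups did, and the log2 fold change was 0.21 (95% interval -0.28 to 0.71). *Txnrd1*, which encodes the cytosolic thioredoxin reductase, showed the opposite batch order. Its values were 390, 433, 231 and 206 in the controls and 459, 458, 252 and 266 after DT, with a log2 fold change of 0.14 (95% interval -0.25 to 0.53). *Srxn1* encodes sulfiredoxin, which repairs overoxidized peroxiredoxins. It ranged from 83.6 to 131 in the controls and from 69.3 to 119 after DT, with a log2 fold change of -0.26 (95% interval -0.63 to 0.12). The intervals of *Nqo1*, *Txnrd1* and *Srxn1* end below a 1.64-fold rise, while that of *Gclm* reaches 1.98-fold. *Hmox1*, encoding the heme-degrading heme oxygenase 1, gave 1 UMI over all controls and 2 over all DT samples, was not tested, and a difference was not detectable at this depth.

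**Figure D2:**
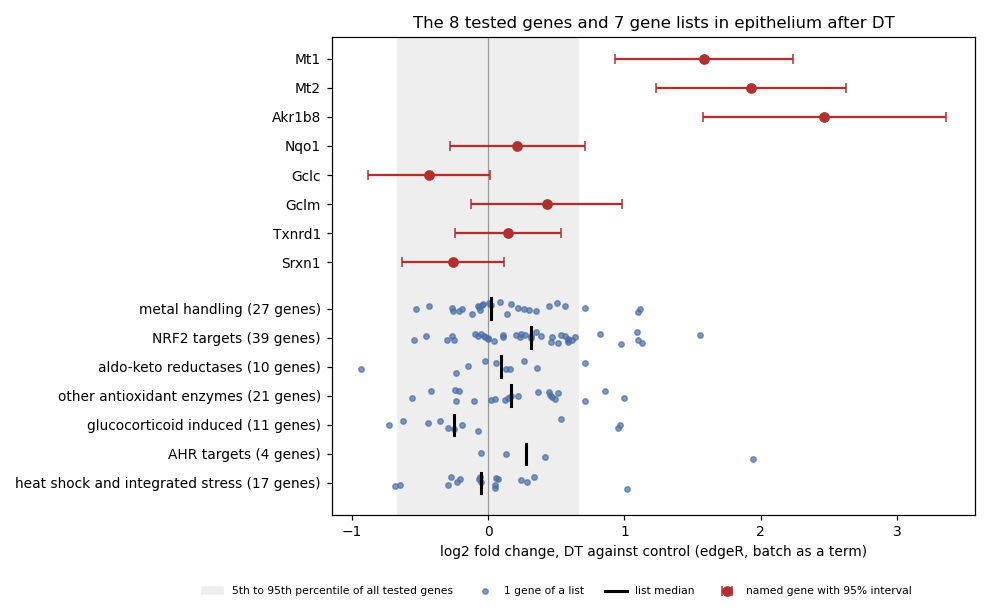
Log2 fold changes after DT for the 8 tested genes (red points, bars 95% intervals) and for the tested genes of 7 lists (blue points, 1 per gene, black bars list medians). The grey band runs from -0.66 to 0.66, the 5th to the 95th percentile of all tested genes. *Mt1*, *Mt2* and *Akr1b8* lie to the right of the band, the other 5 inside it.

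The wider metal response was read from 36 genes of metal transport, storage and control that did not include *Mt1* or *Mt2*. Of 27 tested, 0 were called in either direction, beside 0.356% of all genes. Their median log2 fold change was 0.02, against 0.004 over all tested genes, with 15 above 0 and 12 below. At an unadjusted p under 0.05, 4 of 27 were higher and 1 lower, where of all tested genes 8.82% were higher and 8.44% lower at that p. *Tfrc*, the transferrin receptor for iron uptake, had the largest difference, from a mean of 118 to 261 CPM (log2 fold change 1.11, SE 0.23, edgeR adjusted p = 0.0696). All 4 of its DT values, 184 to 416, lay above the controls, 76.2 to 165. *Fth1*, the ferritin heavy chain that stores iron, had a log2 fold change of 1.10 (SE 0.35, edgeR adjusted p = 0.222), with 2022 to 7001 CPM after DT and 607 to 2526 in the controls.

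A regulator, an exporter and an importer of zinc, picked out after their values were seen, had log2 fold changes below 0. Of the 3, 0 passed the test, beside 0.356% of all tested genes called in either direction. Over the metal list 15 genes were above 0 and 12 below. *Slc11a2* (0.71) and *Atox1* (0.45), also picked out after their values were seen, had log2 fold changes above 0 and were not called. The tested genes of the 2 zinc transporter families, *Slc30* and *Slc39*, went both ways. Their log2 fold changes ran from -0.43 (*Slc30a2*) to 0.51 (*Slc30a10*). The zinc exporter gene *Slc30a1*, a target of MTF1 like the metallothioneins, stood at 10.2 to 25.6 CPM in the controls and 11.4 to 21.1 after DT (log2 fold change -0.26, 95% interval -0.86 to 0.34). *Mtf1* itself had a log2 fold change of -0.53 (edgeR adjusted p = 0.226). The zinc importer gene *Slc39a4* had one of -0.27 (edgeR adjusted p = 0.603).

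The list of NRF2 target genes held 51 genes beyond the 9, of which 39 were tested. Of these 0 were called, beside 0.356% of all genes, a share at which a list of this size is not expected to hold a call. Their median log2 fold change was 0.31, with 29 above 0 and 10 below, against the median of 0.004 over all genes. At an unadjusted p under 0.05, 7 of 39 were higher and 2 lower, beside the same 8.82% and 8.44% of all genes. *Me1*, the cytosolic malic enzyme that makes NADPH, had the largest difference, from 12.1 to 24.1 CPM in the controls to 22.5 to 82.0 after DT (log2 fold change 1.56, SE 0.45, edgeR adjusted p = 0.216). *Gsta4*, a glutathione transferase for lipid aldehydes, had a log2 fold change of 1.13 (SE 0.55, edgeR adjusted p = 0.330). *Nfe2l2* stood at 343 CPM in the controls and 341 after DT, and *Keap1* at 65.3 and 56.7, and these 2 were also picked out after their values were seen. DESeq2 called 2 genes of the metal list (*Fth1*, *Tfrc*) and 2 of the NRF2 list (*Fth1* again, *Me1*) higher, beside 45 higher of 8986 genes (0.501%).

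The lists of other stress systems were also without a call, beside 0.356% of all tested genes called in either direction. At that share, lists of this size are not expected to hold a call, so nothing is read from these zeros. Of 10 tested aldo-keto reductases other than *Akr1b8*, 0 passed, and the largest differences were those of *Akr1c14* (-0.93) and *Akr1b3* (0.71) on the log2 scale. *Akr1b7* and *Akr1b10*, close relatives of *Akr1b8* picked out after their values were seen, had log2 fold changes of -0.23 and 0.06 (edgeR adjusted p = 0.740 and 0.938). Reads shared among such relatives could be split between them by the counting. Of 21 tested antioxidant enzymes outside the NRF2 list 0 passed, with a median of 0.17 and with *Prdx4* (0.99) and *Gpx1* (0.86) the furthest from 0. The glucocorticoid-induced list (11 tested, median -0.25) had *Fkbp5* at 0.97 and *Pdk4* at 0.95. The heat shock and integrated stress list (17 tested, median -0.06) had *Asns* at 1.02 and *Ddit3* at -0.68. Among 4 tested targets of the aryl hydrocarbon receptor, *Cyp1a1* ranged from 0.475 to 57.3 CPM in the controls and from 2.53 to 314 after DT, so its log2 fold change of 1.94 had a 95% interval of -1.62 to 5.50.

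The genes whose batch-centred log2 levels followed the metallothioneins most closely over the 8 samples were *Fam162a* (Pearson r = 0.979), *Prdx6* (0.978), *Spcs2* (0.970), *Srsf7* (0.968) and *Ndufv2* (0.966), out of 6472 genes with at least 20 CPM. *Prdx6*, a peroxiredoxin on the NRF2 list, went from a mean of 264 to 406 CPM. Those closest to *Akr1b8* were *Snx5* (0.989), *Yrdc* (0.984), *Ndufaf2* (0.977), *Igfbp4* (0.969) and *Mrps27* (0.968), out of 6474. All these values share the group difference and the depth of the same 8 libraries.

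Markers of several cell types differed between the groups. All 13 tested proliferation markers had positive log2 fold changes (median 0.50, 0 called, 7 at an unadjusted p under 0.05, beside 8.82% of all genes), with a summed level of 614 to 1059 CPM in the controls and 919 to 1381 after DT. All 10 villus tip enterocyte markers had negative ones (median -0.48), with *Ada* and *Nt5e* called lower and a summed level of 8433 to 11797 in the controls and 6606 to 10693 after DT. Among them, *Ada*, *Nt5e*, *Slc28a2*, *Egfr*, *Klf4*, *Fos* and *Cdh1* were already reported by the paper as lower at the villus tip after ablation in this experiment. Their shared sign is therefore no separate result. Of 7 tested tuft cell markers 6 were called lower, and of 5 tested Paneth cell markers 2, *Mptx2* and *Itln1*. Over all tested genes 0.334% were called lower, the share that stands beside these calls and those of *Ada* and *Nt5e*. The 13 tested immune markers had a median of -0.54 with 0 called, and their sum was 949 to 3316 in the controls and 776 to 1750 after DT. Of 12 stromal markers only 2 passed the filter, *Cdh5* was at 0 throughout, and the sum was 30.7 to 46.6 in the controls and 17.2 to 53.9 after DT. The part of these shifts in the values of *Mt1*, *Mt2* and *Akr1b8* was not tested.

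Single cells of untreated mice showed which classes carried these transcripts. Of 12346 wells 2347 passed the filters, with a median of 1359 UMIs, and were clustered without the 9 genes. Class names rest on marker genes and carry the ending -like. The CD45 gate of mouse G held 72 cells, of which 0 fell in the immune-like class and 57 in the villus tip enterocyte-like class, while the 198 immune-like cells came mostly from the PDGFRa singlet gates of mouse B (83 cells) and mouse C (113), so the gates were not used to name cells. Levels are UMIs per 100000 UMIs of the class, with exact Poisson 95% intervals that cover counting error only. No test was run, and 1 class against another is a description.

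*Mt1* was found in 21.0% of the cells with 1227 UMIs, and its level was lowest at the villus tip among the 3 crypt and enterocyte classes. It was 51.4 (44.1 to 59.6) in the cycling crypt-like class, 33.6 (31.05 to 36.3) in the villus bottom enterocyte-like class and 8.92 (6.91 to 11.3) in the villus tip enterocyte-like class. Crypt and villus bottom could not be ordered. The cycling crypt-like level was the higher in mice A and F and the lower in mice C (118 against 135) and H (103 against 110). It was 89.4 without mouse A, and 28.7 with a looser filter of 200 UMIs and 100 genes per well, where the villus bottom level was 36.0. The villus tip level was 4.93 at a clustering resolution of 1 and 13.6 without the doublet gates. In each of the 5 mice with at least 5 cells of both enterocyte classes, the villus bottom level was above the villus tip level. Per mouse, the villus bottom level ranged from 20.3 in mouse A to 135 in mouse C and the villus tip level from 5.83 to 23.8, so the 2 ranges met. Of the 2 villus tip clusters, the one led by *Ada*, *Slc28a2* and *Nt5e* was lowest, at 3.09. *Mt1* was also present in the mesenchymal-like class at 23.0 (18.6 to 28.2), and stood at 6.30 (3.02 to 11.6) in the immune-like class.

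*Mt2* gave 326 UMIs in all, and its cycling crypt-like level was above the villus bottom level in each of 4 mice. Its level was 19.5 (15.1 to 24.7) in cycling crypt-like, 6.59 (5.48 to 7.85) in villus bottom enterocyte-like and 0.80 (0.29 to 1.74) in villus tip enterocyte-like cells. With the looser filter the cycling crypt-like level was 8.62 and the villus bottom level 7.79. The villus tip level rested on 6 UMIs and was 1.605 without mouse A, 0.19 without mouse G and 0.39 at a resolution of 1. In the mesenchymal-like class, at 14.8 (11.3 to 19.1), it was closer to *Mt1* than elsewhere, with 60 UMIs against 93. That level was 19.2 in mouse G and 5.17 in mouse A, and without mouse G it fell to 5.98. The cluster led by *Mfap5*, *Cd248* and *Inmt* carried most of it, with 22.7 for *Mt2* and 21.1 for *Mt1*.

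*Akr1b8* was rare, with 32 UMIs in 28 of 2347 cells. In the mesenchymal-like class it had 19 UMIs, a level of 4.70 (2.83 to 7.34), and in the other classes 0 to 5 UMIs each. Mouse A gave 10 of the 19, mouse G 7 and mouse B 2, the last from 5 cells only. The level was 3.12 without mouse A and 8.96 without mouse G. With the looser filter it was 3.00 from 11 UMIs, and a class of 241 cells that could not be named held 10 UMIs at 4.81 per 100000. Within the mesenchymal-like class 9 UMIs lay in the cluster led by *Ednrb*, *Adamdec1* and *Acta2* and 9 in the cluster led by *Mfap5*, *Cd248* and *Inmt*. Among the 392 villus tip and 798 villus bottom enterocyte-like cells there were 1 and 5 UMIs, or 0.13 (0.0034 to 0.74) and 0.27 (0.086 to 0.62) per 100000. In the DT experiment, as given above, only 2 of 12 stromal markers passed the filter, and the sum of the 12 overlapped between the groups. The part of stromal RNA in the *Akr1b8* values of that experiment was not tested.

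*Gclm* was the most frequent of the 9 genes in single cells, with 2329 UMIs in 41.3% of the cells. It was highest in the cycling crypt-like class at 169 (155 to 183), against 47.3 (44.3 to 50.5) in villus bottom and 19.2 (16.2 to 22.6) in villus tip enterocyte-like cells, and stood at 95.8 in the immune-like class. *Srxn1* ran the other way in the pooled values, with 4.36 (2.44 to 7.19) in cycling crypt-like, 26.2 (24.0 to 28.7) in villus bottom and 33.4 (29.4 to 37.8) in villus tip enterocyte-like cells. With the looser filter the cycling crypt-like level was 12.9. Between the 2 enterocyte classes it was higher at the villus tip in only 3 of 5 mice. *Txnrd1* was 17.7 (15.9 to 19.7) in villus bottom, 15.6 (12.9 to 18.7) in villus tip and 12.5 (9.04 to 16.8) in cycling crypt-like cells, with intervals that overlapped. Its cycling crypt-like level was below the villus bottom level in each of 4 mice, but it rested on 4, 6 and 1 UMIs in mice C, F and H. Between the 2 enterocyte classes *Txnrd1* was higher at the villus bottom in 2 of 5 mice and at the villus tip in 3. In the mesenchymal-like class *Srxn1* stood at 3.46 (1.89 to 5.81), an interval that overlapped that of the cycling crypt-like class, and *Txnrd1* at 3.96 (2.26 to 6.42).

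*Nqo1*, *Gclc* and *Hmox1* were too rare to order the classes. *Nqo1* gave 46 UMIs in all, 22 of them in villus bottom enterocyte-like cells, and 0 of 404449 UMIs in the mesenchymal-like class, which allows up to 0.742 per 100000 by a limit of 3 counts and up to 0.912 by the exact interval. *Gclc* gave 75 UMIs and was between 0 and 4.41 per 100000 in every class. *Hmox1* gave 5 UMIs, 3 of them mesenchymal-like.

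**Figure D3:**
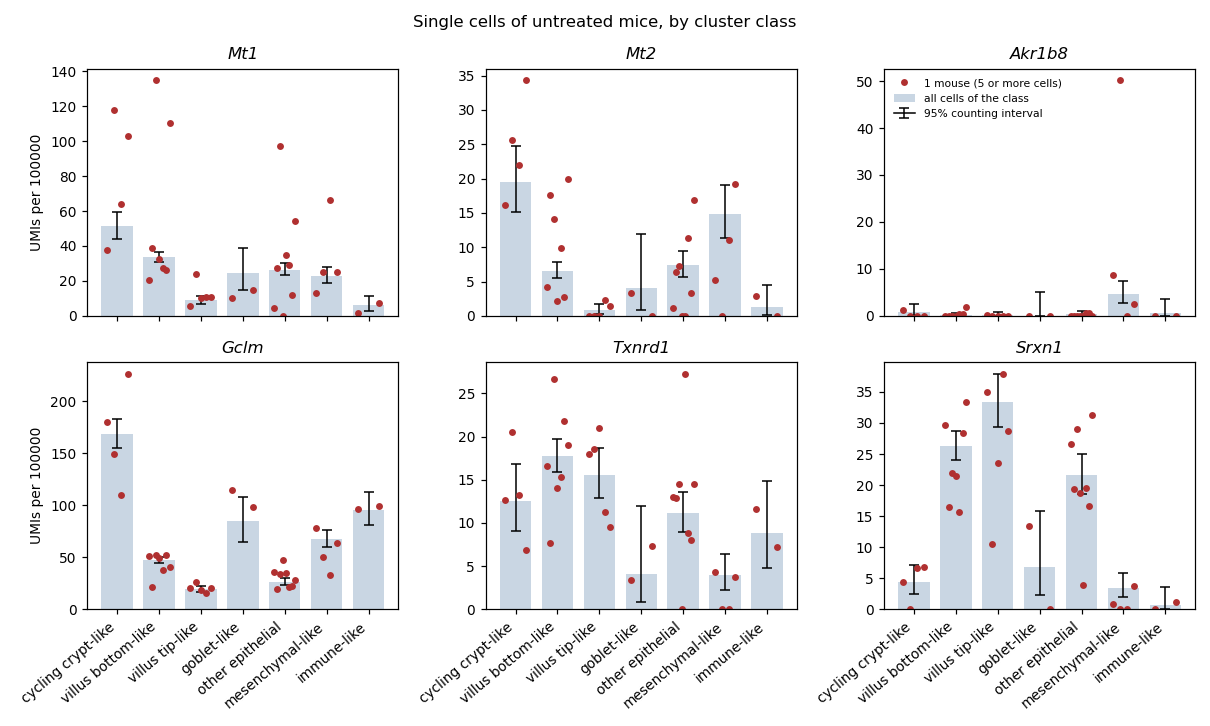
UMIs per 100000 UMIs for 6 genes by cell class in untreated mice, on linear axes from 0. Bars pool all cells of a class with a 95% counting interval, and red points are mice with at least 5 cells. *Mt2* and *Gclm* step down from cycling crypt-like to villus tip enterocyte-like cells, *Mt1* is lower at the villus tip while its crypt and villus bottom mice intermix, and *Akr1b8* stands above 5 UMIs per 100000 in single mice of the mesenchymal-like class only, where the point at 50.2 is mouse B with 5 cells.

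In captured stroma the question was whether the same genes differ between the villus tip and the lower zones. Values are TPM, a length-corrected share of all transcripts, averaged per mouse. They are given per 1000000 (ppm) of a sum that left out enterocyte genes and the most abundant other genes of the section. Enterocyte genes here are those that fill 50% of the UMIs of control epithelium, without ribosomal and mitochondrial genes. They were chosen by abundance in epithelium and not by absence from stroma. TPM keep no read number, so the depth is unknown. The share of enterocyte genes in the TPM of single sections ran from 4.97% to 44.7%, so enterocyte genes were detected in every section, and their part in the values below was not tested. Of 13536 genes 0 were called between villus tip and crypt and 0 between villus tip and villus bottom with limma (0% in each), while 441 and 620 had an unadjusted p under 0.05.

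*Mt1* was above 0 in all 29 sections. Its level was 926, 350 and 580 ppm in the crypt stroma of mice 1 to 3. In mice 1 to 5 it was 911, 1386, 635, 20.4 and 657 ppm at the villus bottom. Villus center values were 704, 739, 120, 10.0 and 804 ppm, and those of the villus tip 1103, 478, 210, 3.49 and 559 ppm. Mouse 4 was far below the others in every zone it was sampled in. The villus tip was above the villus bottom in 1 of 5 mice, and the log2 difference of tip minus bottom was -1.07 (95% interval -3.86 to 1.73, two-sided exact permutation p = 0.508). These tests take the zones as separate mice. With the mouse as a block the interval was -2.16 to 0.03 (limma adjusted p = 0.568). For tip minus crypt the block fit held only mice 1 to 3, and the difference went from -1.56 to -0.25 (limma adjusted p = 0.998). Without mouse 4 and with no block, tip minus crypt was -0.20. The smallest p that the permutation test allows is 0.00794 with 5 mice in each zone, and 0.0179 with 5 against 3.

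*Mt2* was listed at 0 in 5 sections. It was 436, 143 and 76.1 ppm in the crypts of mice 1 to 3. At the villus tip it was 213, 434, 17, 6.85 and 117 ppm in mice 1 to 5, and at the villus bottom 319, 340, 231, 0 and 183 ppm. Mouse 4 was again lowest, and the zones did not separate (tip minus bottom -0.32, 95% interval -3.51 to 2.88, exact permutation p = 0.833, and -2.23 to 1.602 with the mouse as a block).

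*Akr1b8* was listed at 0 in 16 of 29 sections. At the villus tip it was 102 ppm in mouse 1, from 1 of its 2 sections, and listed at 0 in the other 4 mice. At the villus bottom it was 1.58, 22.2, 6.09, 3.61 and 0 ppm in mice 1 to 5. That 1 section, at 93.8 TPM, set the villus tip value of *Akr1b8*, while the other section of the same zone and mouse had 0.604 TPM.

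No oxidative stress enzyme passed the test between zones. *Gclm* is itself on the list of enterocyte genes, which rests on abundance. Its single-cell level was higher in the mesenchymal-like class (67.5 UMIs per 100000) than in villus bottom (47.3) or villus tip (19.2) enterocyte-like cells. In captured stroma it was 292, 96.8, 58.5, 24.0 and 50.2 ppm at the villus tip and 175, 67.3, 117, 202 and 103 ppm at the villus bottom. *Txnrd1* stood below its crypt level at the villus tip of each of the 3 mice with both, with means of 51.1 and 84.3 ppm over all mice of each zone, and its exact permutation p of 0.179 was the smallest of the 18 computed over 9 genes and 2 comparisons. The limma adjusted p of the 8 tested genes was at least 0.990 in both comparisons, and at least 0.568 with the mouse as a block. *Hmox1* stayed under the filter, with at most 5.43 ppm in any mouse and zone.

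**Figure D4:**
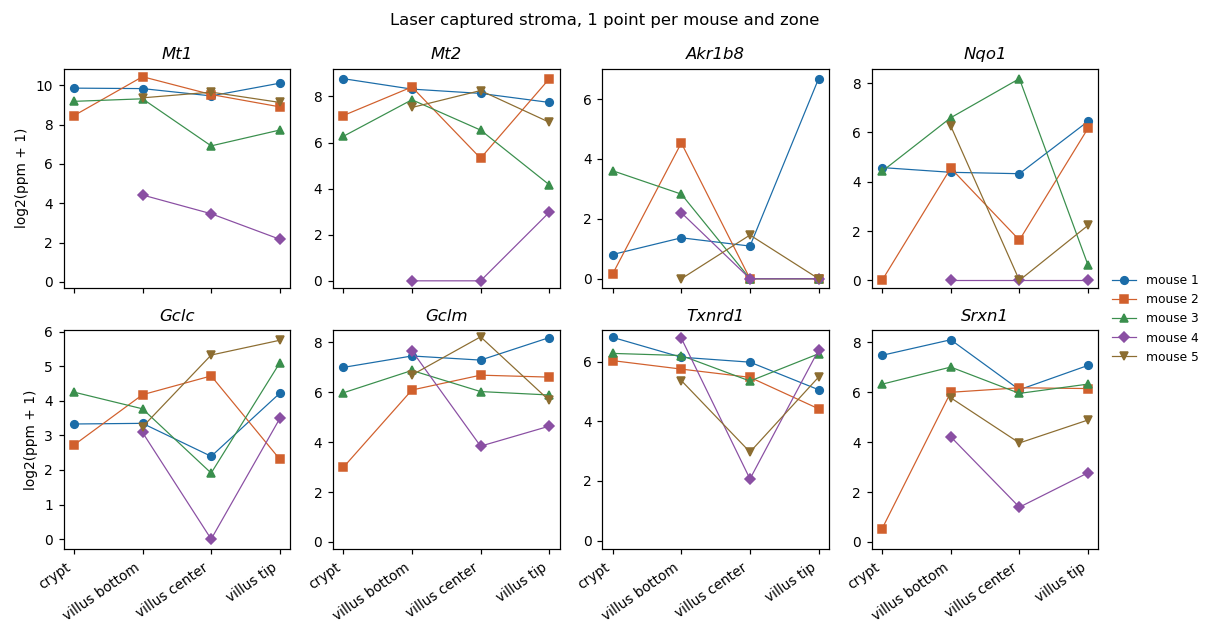
Levels of 8 genes in captured stroma as log2(ppm + 1), 1 point per mouse and zone, with lines that join the zones of a mouse. Mouse 4 (purple) is lowest for *Mt1* and *Mt2* in its 3 zones, and no gene separates the villus tip from the villus bottom.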

How the data were processed

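Epithelial RNA was profiled with mcSCRBseq and single cells with MARS-seq, and for both the authors deposited UMI counts per gene made with zUMIs on GRCm38, without normalization. For the captured stroma the authors deposited TPM per section, made with kallisto and sleuth on coding transcripts. Reads were demultiplexed with bcl2fastq 2.15.0.4 per the labels. Epithelial batches came from the sample table of the study. The 9 genes and all 17 gene lists were chosen with earlier results of these data known.

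Epithelial genes with over 0.00001 of the UMIs in at least 2 samples were tested with edgeR 4.0.16 (TMM, quasi-likelihood, robust, batch as a term, Benjamini-Hochberg adjustment) in R 4.3.3. Totals of 748458 to 4210158 UMIs set the precision, and the p-values measure the spread between samples that the methods call mice. Samples of the same replicate number deviated together, with correlations of 0.60, 0.41, 0.65 and 0.58, but the number also holds the batch, and within batches the correlations were -0.14 and -0.06. A fit with the replicate number as a block was also made.

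Stromal TPM were rescaled to ppm without the 378 enterocyte genes in the table, of which *Gclm* kept a value. The scaling sum held only the remaining genes that were each under 1% of the section. Values were averaged per mouse and tested as log2(ppm + 1) with limma 3.58.1 where a zone mean reached 5 ppm. A fold on this scale understates changes of low genes. Single values were tested with exact permutation tests, two-sided. These tests took zones as independent mice. Since zones share animals, a fit with the mouse as a block was an alternative. It held only the zones compared and the mice with both of them.

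Wells were kept if they held 400 to 8000 UMIs and no fewer than 250 genes, and clustered with Seurat 5.3.0 (11 components, resolution 2) without the 9 genes and without the lists that are no markers. No doublet caller was run, and gates sorted for doublets were left out in an alternative. Classes needed at least 3 markers in 10% of cells, and villus classes a marker score of 0.5 log2 units, a threshold set after the data were seen. Free RNA was not removed. The 352 wells of 1 plate with no matching sample were not used.

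From each list the genes past the threshold were named, up to 5 in each direction, and otherwise the 2 with the largest difference. Genes chosen after their values were seen are marked as such. Promoters are those of RefSeq on GRCm38.p6, and positions of genes come from the GRCm38 annotation. Alternatives were DESeq2 1.42.0 and its size factors, no filter, no batch term, other pseudocounts, filters and resolutions, and leaving out each replicate.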

Additional observations from a re-analysis of the deposited data

Results flagged for a closer look

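Of 84 groups of 4 to 10 mice or samples examined, 12 had a highest value set apart from the rest by Dixon's criterion. For normally distributed values chance gives about 1 in 20 groups (4.2). Many values here were at or near 0 and all 12 flags were highest values, so 4.2 is not the chance number for these data. In captured stroma the flagged values were *Akr1b8* at the villus bottom (22.2 ppm in 1 mouse, next 6.09) and at the villus tip (102 ppm, next 0), *Nqo1* at the villus center (289 ppm, next 19.0), *Gclm* at the villus tip (292 ppm, next 96.8) and *Hmox1* at the villus center (1.499 ppm, next 0.219).

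In single cells, as UMIs per 100000 per mouse, *Mt1* in villus tip enterocyte-like cells was 23.8 in mouse B and 10.9 in the next mouse. *Gclc* in other epithelial cells was 28.1 in 1 mouse, next 2.41. For genes with few UMIs a single mouse stood apart because most others were at or near 0, as for *Akr1b8* in cycling crypt-like (1.18, next 0), villus bottom enterocyte-like (1.90, next 0.413) and villus tip enterocyte-like cells (0.265, next 0), and for *Hmox1* in mesenchymal-like (1.11, next 0) and villus bottom enterocyte-like cells (0.284, next 0).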

How the results depend on the processing

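The directions of *Mt1*, *Mt2* and *Akr1b8* after DT did not change under any alternative run, with log2 fold changes of 1.39 to 1.82, 1.71 to 2.12 and 2.23 to 2.92 when 1 sample was left out, and of 1.59, 1.88 and 2.42 with the replicate block. The calls did change. Against 32 genes called, DESeq2 called 159, the fit with no filter 635, the fit with no batch term 1, the replicate block 3, and leaving out 1 sample 3 to 41. Thinning each library to the smallest, chosen after seeing the data, left 17 calls, 2 of them higher. Of the genes of the 17 lists 10 were called, all lower, beside 0.356% of all tested genes in either direction. They were 6 tuft cell, 2 Paneth cell and 2 villus tip enterocyte markers. The number of list genes called was 21 with DESeq2, 49 with no filter, 1 with no batch term, 3 with the block and 3 to 9 without 1 sample. For metal handling 0 became 2 with DESeq2, 3 with no filter and 1 without DT replicate 4. For NRF2 targets it became 2 and 6 with DESeq2 and no filter, for aldo-keto reductases 1 and for other antioxidant enzymes 3, both with no filter. The causes were not tested.

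Between stromal zones, 2 genes were called (tip below crypt) with no filter, and the mouse block called 0 in both comparisons. For *Akr1b8* the log2 difference tip minus crypt turned from -0.19 to 0.30 with a pseudocount of 10 ppm and to 0.70 with the replicate block of mice, and ran from -1.88 to 1.19 when 1 mouse was left out. When 1 mouse was left out it ran from -2.17 to 1.43 for *Nqo1*, -0.39 to 1.29 for *Gclm* and -1.63 to 1.61 for *Srxn1*, each lowest without mouse 2. Tip minus bottom ran from -1.14 to 0.53 for *Mt2* and from -2.39 to 0.072 for *Akr1b8*, which was 0.091 with a pseudocount of 10 ppm. In single cells, the level of *Mt1* in villus bottom minus that in villus tip enterocyte-like cells was 24.7 UMIs per 100000, and 20.4 to 29.7 over its alternatives. *Mt1* in cycling crypt-like cells was 89.4 without mouse A and 28.7 with the looser filter, below villus bottom at 36.0, and *Mt2* in villus tip enterocyte-like cells ran from 0.19 to 1.605. Depth limits *Akr1b8*, *Nqo1*, *Gclc* and *Hmox1* in single cells and *Hmox1* in epithelium.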
